A study of Phyllostachys violascens with 16 samples.

Results

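PH02Gene26343 is a gene of Lei bamboo (Phyllostachys violascens) whose closest described protein is DMP2 of rice. It is 1 of 7 rows described as a protein DMP among the 50936 genes of the deposited table, and the other 6 are described beside it. The gene was chosen by its own levels in these libraries, namely 0 counts at harvest and a clear signal after storage. Its levels at the 4 times are therefore given as a description, with no test. Tests are given for the other DMP rows, for the genes beside it on the scaffold and for lists of related functions.

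The material was the middle section, about 10 cm long, of spring shoots of Lei bamboo, a bamboo grown for its edible shoots. Shoots were 30 to 40 cm tall, were held at 4 °C in polyethylene bags at a humidity of 60 to 70%, and were kept as 30 shoots per repeat. Each RNA-seq library pools sections of 6 shoots, with 4 libraries at each of 0, 2, 6 and 20 days, called 0d, 2d, 6d and 20d. No library comes from shoots held at another temperature, so cold, time since harvest and packing cannot be told apart.

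DMP proteins, named after a domain of unknown function, are small proteins of plant membranes with several membrane-spanning helices. In Arabidopsis, DMP1 is known for its induction in senescing leaves, for its place in the membranes of the endoplasmic reticulum (ER) and the vacuole, and for changing the shape of these membranes when overproduced. Other Arabidopsis members, DMP8 and DMP9, act in sperm cells during gamete fusion, and loss of a maize DMP gene raises the rate of haploid seeds. What the bamboo proteins do is not known from these files.

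PH02Gene26343 lies on scaffold 10 from 3180343 to 3181110 on the minus strand, a span of 768 bp, and the length behind its FPKM is 688 bp. FPKM gives fragments scaled by gene length and library size. The gene ontology terms in the deposited table place its product in the ER membrane and the vacuole membrane, with the processes abscission and endomembrane system organization. These terms were carried over from similar proteins and were not measured in bamboo. The genome build behind the scaffold numbers is not given in the sources used here.

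At 0d PH02Gene26343 had 0 counts in each of the 4 libraries. A total of 12 deposited counts over the group, about 3 sequenced fragments, was taken as the limit that a count of 0 allows, and this corresponds to 0.0723 FPKM. At 2d the 4 libraries stood at 4.27, 5.22, 3.15 and 3.94 FPKM, from 158, 187, 136 and 146 deposited counts. Every library at 2d was thus above every library at harvest, at a level that remained low.

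At 6d the libraries held 39.5, 34.1, 39.9 and 46.5 FPKM, the peak of the series. At 20d they held 20.5, 23.8, 20.7 and 19.4 FPKM. The lowest library at 6d was above the highest at 20d, and the lowest at 20d was above the highest at 2d. The order of the times was therefore 6d, 20d, 2d and 0d, and the libraries of no pair of times overlapped.

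The group means of PH02Gene26343 were 4.14 ± 0.856 FPKM at 2d, 40.0 ± 5.08 FPKM at 6d and 21.1 ± 1.91 FPKM at 20d (SD, n = 4). The mean at 6d was 9.66 times that at 2d, and 1.90 times that at 20d. Set against the limit of 0.0723 FPKM, the gene was at least 57.3-fold higher at 2d than at 0d, at least 554-fold higher at 6d and at least 292-fold higher at 20d. With the same 12 counts but TMM-scaled counts in place of FPKM, these lower bounds were 67.6, 629 and 364. They cover counting error only. The spread between libraries was widest at the lowest level, with a coefficient of variation of 20.7% at 2d, 12.7% at 6d and 9.04% at 20d. In such bulk tissue, a change in the number of cells that carry a transcript and a change in its amount per cell cannot be told apart.

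**Figure D1:**
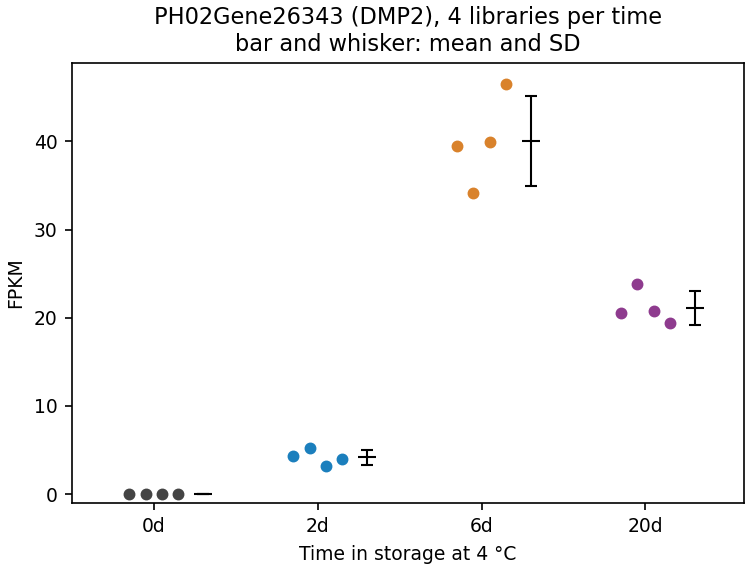
FPKM of PH02Gene26343 in each of the 16 libraries (points) by days of storage, with the mean and SD of the 4 libraries of a time. The gene was at 0 in every library at 0d, reached 34.1 to 46.5 FPKM at 6d and stood at 19.4 to 23.8 FPKM at 20d.

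Among the 36617 genes with counts at 6d, PH02Gene26343 ranked 2967th by mean FPKM, at percentile 91.9. It ranked 16030th at 2d and 5740th at 20d. A total of 13665 rows had 0 counts in all libraries at 0d, and 53 of these had a mean of at least 1 FPKM at 6d. PH02Gene26343 was the highest of them at 6d, and the next was PH02Gene11536, described as a wound-induced Bowman-Birk proteinase inhibitor WIP1-like, at 13.5 FPKM. No further row of this kind had a mean of at least 10 FPKM at 6d. At 20d there were 10 such rows, and PH02Gene26343 was the sixth of them. These ranks are descriptions only, since the gene was chosen for 0 counts at harvest and a signal in storage.

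The other 6 DMP rows were spread over scaffolds 6, 7, 14, 15 and 16, none on scaffold 10. A mean of at least 1 FPKM over all libraries was asked of a gene before testing, and 4 of the 6 reached it. PH02Gene07723 and PH02Gene48139 had a mean of at least 1 FPKM at every time, whereas PH02Gene22339 and PH02Gene01370 passed only through their levels at 20d. These had to differ at 20d, so their levels at that time are described with no test. PH02Gene26343 itself passed only through the stored shoots. A gene was called where edgeR's adjusted p was below 0.05 and the log2 change at least 1 in size.

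PH02Gene07723, on scaffold 15 from 38290214 to 38290931, shares its best hit, rice DMP2, and its ontology terms with PH02Gene26343. Its libraries held 7.30, 8.88, 7.11 and 6.87 FPKM at 0d, and 0.853, 1.38, 0.740 and 1.29 FPKM at 2d. This fall came while PH02Gene26343 appeared, and no library at 2d reached the level at 0d. The libraries held 3.66, 4.55, 5.37 and 3.53 FPKM at 6d, and 199, 201, 224 and 206 FPKM at 20d. All libraries at 20d were far above those of the other times, and the mean of 208 ± 11.4 FPKM ranked 256th among all genes.

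In edgeR, PH02Gene07723 fell by 2.57 on the log2 scale from 0d to 2d (SE 0.171, adjusted p = 1.34e-10). At 6d its log2 change from 0d was -0.64 (SE 0.130, edgeR adjusted p = 0.000198), which missed the limit on size. From 2d to 6d, when PH02Gene26343 also went up, it rose by 1.94 on the log2 scale (SE 0.187, edgeR adjusted p = 4.13e-08). By 20d it had risen by 5.10 on the log2 scale over 0d (SE 0.109, edgeR adjusted p = 2.66e-18). From 6d to 20d, when the mean of PH02Gene26343 went from 40.0 to 21.1 FPKM, PH02Gene07723 rose by 5.73 on the log2 scale (SE 0.116, edgeR adjusted p = 2.99e-18). The genes with the same rice hit thus peaked at different times, PH02Gene26343 at 6d and PH02Gene07723 at 20d. Both could share fragments if their sequences were close, and how fragments with several matches were counted is not given in the sources used here.

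PH02Gene48139, on scaffold 16 from 82033104 to 82034167, has DMP2 of Brachypodium as its best hit. It was the highest DMP row at 0d, with 18.8, 13.6, 17.6 and 14.5 FPKM, and its mean was 1.17 ± 0.327 FPKM at 2d, 1.74 ± 0.433 FPKM at 6d and 1.03 ± 0.126 FPKM at 20d. It fell at every stored time in edgeR, by 3.52 on the log2 scale at 2d (SE 0.204, adjusted p = 4.19e-14). The log2 change from 0d was -3.03 at 6d and -3.64 at 20d, with edgeR adjusted p of 3.15e-13 and 1.48e-14. Its place as the leading DMP transcript was thus held at harvest and lost within 2 days. Between the stored times its log2 changes of 0.49 and -0.61 were not called.

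PH02Gene18816 lies 339 kb from PH02Gene48139 on the same scaffold and has the same Brachypodium hit. It was too low to be tested, with 0.692, 0.469, 0.517 and 0.904 FPKM at 0d, 4 counts in 1 library at 2d, 10 counts at 6d and 0 counts at 20d. On TMM-scaled counts, as for the ratios of the next rows, its level at 0d was 26.9 times that at 2d, with an exact 95% Clopper-Pearson counting interval of 4.55 to 1098. Without 2d replicate 2, which held all of its counts at that time, it was at least 6.86-fold higher at 0d. The level at 0d was 11.8 times that at 6d (interval 3.12 to 50.3) and at least 9.07-fold above 20d.

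PH02Gene22339, on scaffold 6 from 61726325 to 61727083, is described as DMP4 of rice and carries the terms abscission and plant organ senescence. It was listed at 0.255, 0, 0 and 0 FPKM at 0d and 0.220, 0, 0 and 0 FPKM at 2d. It was low in every library at 6d, with 0.389, 0.175, 0.429 and 0.465 FPKM, and reached 7.68, 7.35, 7.62 and 9.04 FPKM at 20d. Only the libraries at 20d stood clearly apart. The level at 20d was 144 times that at 0d, with a counting interval of 48.8 to 701, and at least 106-fold higher without 0d replicate 1. These values describe size and counting error only. They do not test a rise, since the level at 20d admitted the row. The change from 0d to 6d, a ratio of 6.29 with a counting interval of 1.80 to 33.7, had an edgeR adjusted p of 0.0195. That call was lost in DESeq2, at an adjusted p of 0.0792, and without 0d replicate 3, at 0.0501. The change from 2d to 6d, at an edgeR adjusted p of 0.0311, was lost on leaving out any of 6 libraries, with adjusted p of 0.0509 to 0.0779, and in DESeq2, at 0.102.

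PH02Gene01370, described as DMP4-like, spans 3206 bp on scaffold 7 from 47415223 to 47418428. Its libraries held 0.0274, 0, 0.0904 and 0.210 FPKM at 0d, and 0, 0, 0 and 0.114 FPKM at 2d. They held 0.134, 0.353, 0.227 and 0.177 FPKM at 6d, and 9.27, 10.7, 10.8 and 9.28 FPKM at 20d. This gene, too, was at a sizeable level at 20d alone. The level at 20d was 143 times that at 0d (counting interval 61.7 to 319). Here, too, this is no test of a rise, since the level at 20d admitted the row. From 0d to 2d the log2 change was -1.22 (edgeR adjusted p = 0.296). Without 2d replicate 4, edgeR gave -5.46, past both limits. Every library then left at 2d was at 0, and few fragments set the level at 0d, so the size of this fall was not measured. From 0d to 6d the log2 change was 1.57, at an edgeR adjusted p of 0.0504. From 2d to 6d it rose by 2.79 on the log2 scale (edgeR adjusted p = 0.0113), and without 2d replicate 4 the gene was at least 3.68-fold higher at 6d.

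PH02Gene01676, the last row with rice DMP2 as best hit, lies on scaffold 14 from 20087528 to 20088525 and had 0 counts in all 16 libraries. The rows described as DMP2 thus did not all share a course. PH02Gene26343 was highest at 6d, PH02Gene07723 at 20d, and PH02Gene01676 was silent at this depth. PH02Gene48139 and PH02Gene18816, with the same Brachypodium hit, were both highest at 0d, the latter at a low level.

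**Figure D2:**
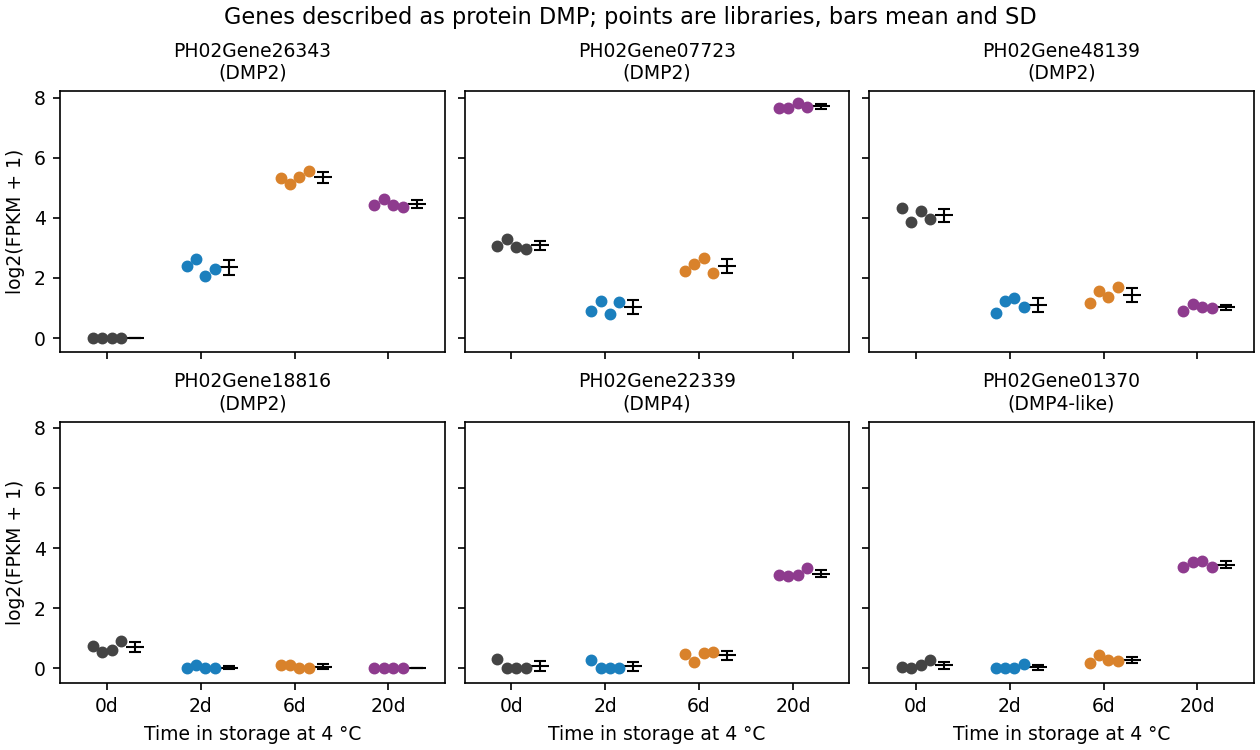
log2(FPKM + 1) of each DMP row with counts in the 16 libraries (points) by time in storage, with the mean and SD of the 4 libraries of a time. PH02Gene26343 was highest at 6d, PH02Gene07723, PH02Gene22339 and PH02Gene01370 at 20d, and PH02Gene48139 and PH02Gene18816 at 0d.

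The counts of calls among the 4 other tested DMP rows are given with those over all 24944 tested genes. From 0d to 2d, 0 of the 4 rose and 2 fell in edgeR, where 13.1% of all genes were called higher and 18.1% lower. None of the 4 was higher at 2d at an unadjusted p under 0.05 either, nor in DESeq2. The 2 that fell were PH02Gene07723 and PH02Gene48139. PH02Gene22339 and PH02Gene01370 were admitted only by their level at 20d, and few fragments set their levels at 0d and 2d. That this pair was not called at 2d therefore says little. From 0d to 6d, PH02Gene22339 rose and PH02Gene48139 fell, where 16.8% and 21.6% of all genes were called. The call of PH02Gene22339, a row admitted by its level at 20d, was lost in DESeq2. For 20d only PH02Gene07723 and PH02Gene48139 are counted, since the other tested pair was admitted by its level at that time. From 0d to 20d, 1 of these 2 rose and 1 fell, where 19.5% and 24.5% of all genes were called.

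Between stored times, PH02Gene07723 was called higher from 2d to 6d and PH02Gene48139 was not called. Of all genes, 6.94% were called higher and 8.14% lower. PH02Gene22339 and PH02Gene01370 were also called higher, but only their level at 20d admitted them, and few fragments set their level at 2d. In DESeq2 the call of PH02Gene22339 was lost, at an adjusted p of 0.102. From 6d to 20d, PH02Gene07723 was called higher and PH02Gene48139 was not called, where 12.7% of all genes were called higher and 14.2% lower. These 2 rows also changed over the 4 times in the F test of edgeR, as did 64.6% of all genes. PH02Gene26343 is not in these counts, because its levels chose it.

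FPKM is scaled by gene length, so the 7 rows can be added up within a library. Their summed FPKM ran from 22.5 to 27.1 at 0d, from 5.41 to 7.99 at 2d, from 41.2 to 52.9 at 6d and from 237 to 264 at 20d. The sum was thus lowest at 2d and highest at 20d, and the libraries of no pair of times overlapped. PH02Gene26343 made up 0% of the sum at 0d. Its share was 63.7% ± 4.94 at 2d and 85.6% ± 2.62 at 6d, and it dropped back to 8.53% ± 0.880 at 20d (SD, n = 4). PH02Gene48139 made up 65.7% ± 4.91 of it at 0d, and PH02Gene07723 made up 83.8% ± 1.02 at 20d. The leading DMP transcript therefore passed from PH02Gene48139 at harvest to PH02Gene26343 at 2d and 6d, and to PH02Gene07723 at 20d.

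The ratio between PH02Gene26343 and PH02Gene07723 was taken within each library. Both genes were higher at 6d than at 2d, where PH02Gene07723 had means of 4.28 and 1.06 FPKM. The FPKM of PH02Gene26343 was 3.06 to 5.0 times that of PH02Gene07723 in the libraries at 2d and 7.43 to 13.2 times at 6d. At 20d the order was turned, and PH02Gene07723 was 8.46 to 10.8 times higher.

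**Figure D3:**
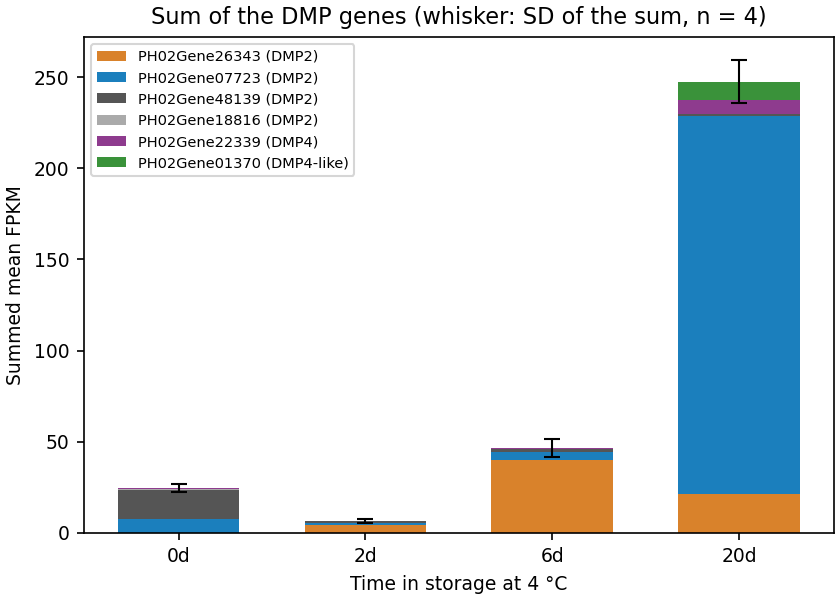
Mean FPKM of the DMP rows stacked by gene at each time in storage, with the SD of the sum over the 4 libraries. Over the libraries, the sum was 22.5 to 27.1 at 0d, mainly PH02Gene48139, 41.2 to 52.9 at 6d, mainly PH02Gene26343, and 237 to 264 at 20d, mainly PH02Gene07723.

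Of the ontology terms of PH02Gene26343, abscission, the shedding of organs, was assigned to 4 rows of the table, of which 3 were DMP rows. The other was PH02Gene01683, a hypothetical protein on scaffold 14 with 0 counts in all libraries. Plant organ senescence, a term of PH02Gene22339 and not of PH02Gene26343, was assigned to 4 rows, 1 of them a DMP row. The vacuole membrane was assigned to 244 rows, and endomembrane system organization to 35. The abscission term thus rests nearly on the DMP rows alone and gives no separate view of the process.

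On scaffold 10 no row overlapped PH02Gene26343, and of the 10 nearest rows, 5 on each side, 8 were tested. PH02Gene26342, a flavoprotein subunit of mitochondrial NADH dehydrogenase, lies 1.55 kb away on the same strand, on the 3′ side. Its mean at successive times was 76.7, 72.7, 78.3 and 60.2 FPKM, and its log2 changes from 0d of 0.17, 0.20 and -0.04 were not called. The nearest gene was thus well expressed at harvest, when PH02Gene26343 had 0 counts.

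PH02Gene26341, an uncharacterized protein 5.69 kb away, stood at 5.92, 3.68, 4.33 and 22.9 FPKM at the 4 times and rose by 2.26 on the log2 scale at 20d (SE 0.067, edgeR adjusted p = 2e-20). On the other side, PH02Gene26344, described as a transformation/transcription domain-associated protein, lies 42.0 kb away and was called at no stored time. PH02Gene26345, a predicted protein 84.5 kb away, rose by 1.21, 1.16 and 1.44 on the log2 scale at 2d, 6d and 20d, with edgeR adjusted p of 3.96e-17, 6.41e-17 and 5.02e-19. Of the 8 tested neighbours, 1 was called higher at 2d (12.5%), 1 at 6d (12.5%) and 3 at 20d (37.5%), against 13.1%, 16.8% and 19.5% of all tested genes. With so few neighbours, the shares at 2d and 6d are near those of all genes. None was called lower in edgeR or DESeq2, while 3, 3 and 2 were lower at an unadjusted p under 0.05 in edgeR. The changes of PH02Gene26345 at 2d and 6d were 0.95 and 0.97 under scaling by total counts, below the limit on size.

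**Figure D4:**
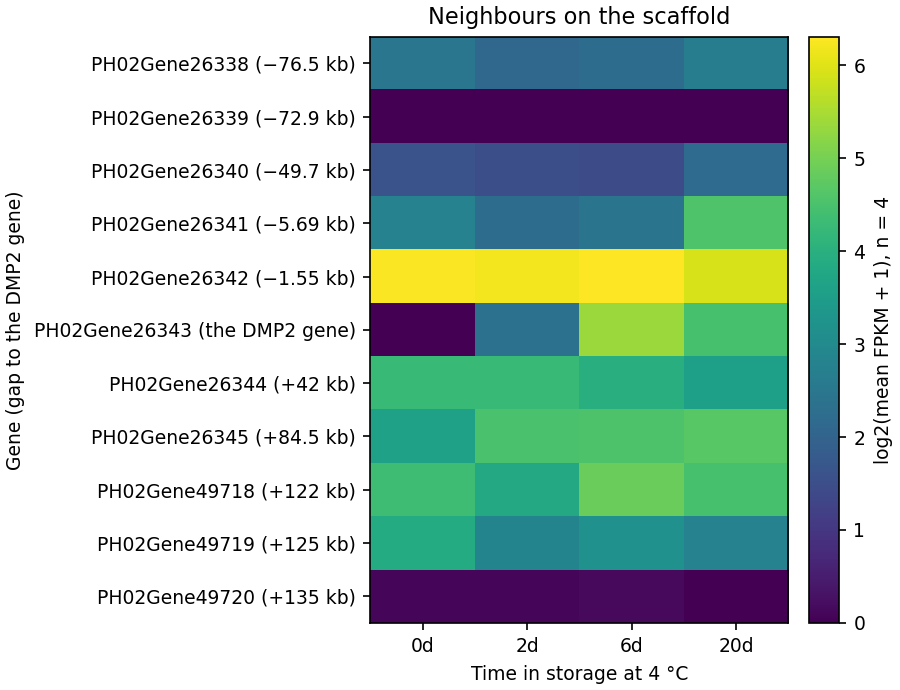
log2(mean FPKM + 1) over the 4 libraries of a time (colour) for PH02Gene26343 and the 5 nearest rows on each side of it (vertical axis), by time in storage (horizontal axis). The nearest gene, PH02Gene26342, stayed between 60.2 and 78.3 FPKM while PH02Gene26343 went from 0 to 40.0 FPKM.

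Lists of genes in processes that DMP proteins are known for were set beside these rows by description. The counts below are to be read against all tested genes, of which 13.1%, 16.8% and 19.5% were called higher and 18.1%, 21.6% and 24.5% lower at 2d, 6d and 20d. The list of senescence, the ordered breakdown of ageing organs, had 44 rows, but 5 of them were tested. At 2d 0 were called higher and 1 lower in edgeR, with 1 higher at an unadjusted p under 0.05. At 6d and at 20d 1 was called higher and 2 lower, and under scaling by total counts 4 were lower at 20d. With 5 genes such counts cannot be set apart from the general shares. PH02Gene19014, described as senescence-associated protein DH, had means of 18.9, 5.89, 40.9 and 78.7 FPKM at the 4 times. Its log2 changes from 0d were -1.43, 1.28 and 2.37, all called, so it fell at 2d and rose afterwards. PH02Gene34373, described as a senescence-induced receptor, went from 15.5 FPKM at 0d to 1.55 FPKM at 20d and was called lower at 6d and 20d, with log2 changes of -2.65 and -3.01.

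The 13 tested of 18 rows for chlorophyll breakdown were called higher in 2 cases at 2d (15.4%), in 5 at 6d (38.5%) and in 9 at 20d (69.2%). The share at 2d is near that of all genes, and those at 6d and 20d are above it. At 2d and 6d 0 were called lower in edgeR or DESeq2, with 2 lower at an unadjusted p under 0.05 each time, and at 20d 1 was called lower. Their median log2 change was 0.34, 0.58 and 1.44, where the median over all genes tested was -0.004, -0.024 and 0.016. PH02Gene27204, a red chlorophyll catabolite reductase, which acts in the breakdown of chlorophyll, rose from 20.8 FPKM at 0d to 46.1 FPKM at 2d and 70.8 FPKM at 20d, with log2 changes of 1.40, 1.30 and 2.08. PH02Gene05142, a stay-green protein, which takes the magnesium out of chlorophyll, was at 29.7, 27.3, 14.9 and 97.4 FPKM. It was called at 20d alone, when PH02Gene26343 was already below its peak, with a log2 change of 2.03.

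Of 56 rows for developmental cell death, 35 were tested. At 2d 2 were called higher (5.71%) and 8 lower (22.9%), at 6d 2 (5.71%) and 11 (31.4%), and at 20d 5 (14.3%) and 10 (28.6%). The shares lower at 2d and 20d are near those of all genes. PH02Gene20219, described as endonuclease 2, which cuts nucleic acids, had means of 135, 308, 397 and 1324 FPKM and rose by 1.45, 1.74 and 3.61 on the log2 scale. PH02Gene22160, a vacuolar-processing enzyme-like protease, which cuts proteins in the vacuole, was at 25.3, 24.7, 66.8 and 131 FPKM. It was called higher at 6d and 20d, by 1.57 and 2.69. The median log2 change of the list was -0.38, -0.73 and 0.07, and the last of these was -0.25 under scaling by total counts.

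The list for ER shape had 39 tested of 54 rows, with 1 called higher (2.56%) and 15 lower (38.5%) at 2d, 6 (15.4%) and 13 (33.3%) at 6d, and 8 (20.5%) and 15 (38.5%) at 20d. The shares higher at 6d and 20d are near those of all genes, and the shares lower are above them at each time. Its median log2 change was -0.46, -0.52 and -0.20. PH02Gene45453, described as reticulon B2, of a family that curves ER membranes, went from 43.5 to 54.8, 74.3 and 111 FPKM and was called at 20d alone, at 1.66. PH02Gene24168, described as reticulon B1, went the other way, from 73.3 FPKM to 4.67, 7.25 and 1.56 FPKM, with log2 changes of -3.72, -3.16 and -5.24. Each of the log2 changes called in these lists had an edgeR adjusted p below 0.05 over all tested genes. The gamete fusion list had 1 tested of 10 rows, and 0 were called in edgeR or DESeq2, with 1 at an unadjusted p under 0.05 in the F test.

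Marker lists of the shoot and of other tissues were followed over the same libraries. For shoot tissue, 23 of 40 rows were tested and 5 rows were at 0 throughout, and the summed FPKM was 482 to 498 at 0d, 558 to 560 at 2d, 505 to 511 at 6d and 458 to 467 at 20d. Summed FPKM, here and for the lists below, is not TMM-scaled as the calls are, and a small shift in a sum may not hold under TMM scaling. Single members moved both ways beneath these sums. Of the tested members, 26.1% were called higher at each of 2d, 6d and 20d, and 8.7%, 39.1% and 26.1% lower. Of all tested genes, 13.1%, 16.8% and 19.5% were called higher and 18.1%, 21.6% and 24.5% lower. For pollen and anther, the tissues in which DMP genes are best known, 15 of 43 rows were tested and 13 were at 0 throughout. Their sum went from 221 to 231 FPKM at 0d to 139 to 143 FPKM at 20d. A sum follows its most abundant rows, and of the tested members 4 were called higher and 2 lower at 20d, with a median log2 change of 0.19 (-0.14 under scaling by total counts). For root, 1 of 6 rows was tested, and the sum was 10.6 to 13.5 FPKM at 0d, 1.67 to 2.30 at 2d, 1.20 to 1.97 at 6d and 5.51 to 7.42 at 20d. The tested root row was called lower at 2d and 6d and was not called at 20d. The part of these shifts in the DMP levels was not tested.

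Deposited counts per library ran from 51.7 to 64.9 M (mega), with no group standing apart in depth. The TMM scaling factor was 1.14 at 0d, 0.957 to 0.960 at 2d, 0.998 to 1.0 at 6d and 0.911 to 0.916 at 20d. Under scaling by total counts the median log2 change of all tested genes moved to -0.26, -0.21 and -0.30 at 2d, 6d and 20d. Higher genes then made up 28.5%, 33.6% and 31.0% of all calls at these times, against 42.0%, 43.7% and 44.3% with TMM scaling. The log2 changes above are relative to TMM scaling, whereas FPKM and its sums are not TMM-scaled. The course in FPKM can therefore differ from the log2 change. PH02Gene26342 went from 76.7 FPKM at 0d to 72.7 FPKM at 2d, with a log2 change of 0.17.

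The course of PH02Gene26343 over the 16 libraries was set beside that of the other 24943 tested genes by Pearson's r on log2(FPKM + 1). The libraries of a time share their treatment, so r mainly measures likeness over 4 times, and it is a description only. A total of 34 genes had an r of at least 0.99 and 540 an r of at least 0.95, and the median over all genes was -0.221. The 10 named here are those with the highest r and an informative description.

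The closest was PH02Gene15978, a subunit of the receptor that docks the signal recognition particle at the ER, with r = 0.9969. It was followed by PH02Gene21499, a protein phosphatase BSL2 homolog (0.9964), and PH02Gene04103, the protein SKD1 by its long name, an ATPase of endosomal sorting (0.9957). PH02Gene03829, the chromatin remodeller PIE1, had r = 0.9953. PH02Gene34431, a calcium pump of the ER, had r = 0.9943 and means of 8.83, 20.7, 48.2 and 36.5 FPKM. PH02Gene02541, the DNA repair protein RAD54, had r = 0.9942 and means of 0.669, 2.54, 9.35 and 6.40 FPKM. The rest were PH02Gene13492, a polyadenylate-binding protein, PH02Gene38452, a proteasome subunit, PH02Gene35620, a transmembrane 9 protein, and PH02Gene49912, a histone demethylase JMJ18, with r of 0.9941, 0.9937, 0.9934 and 0.9931.

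All 10 had the order 6d, 20d, 2d and 0d in their means, but none started at 0. Their highest mean was 1.79 to 14.0 times their lowest. The names depended on the measure: 0 of the 10 were among the closest 10 with 0.1 in place of 1 added to FPKM, and 2 with Spearman's rank correlation. The other DMP rows were not close to PH02Gene26343, with r of 0.487 for PH02Gene22339, 0.437 for PH02Gene01370, 0.306 for PH02Gene07723 and -0.795 for PH02Gene48139.

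**Figure D5:**
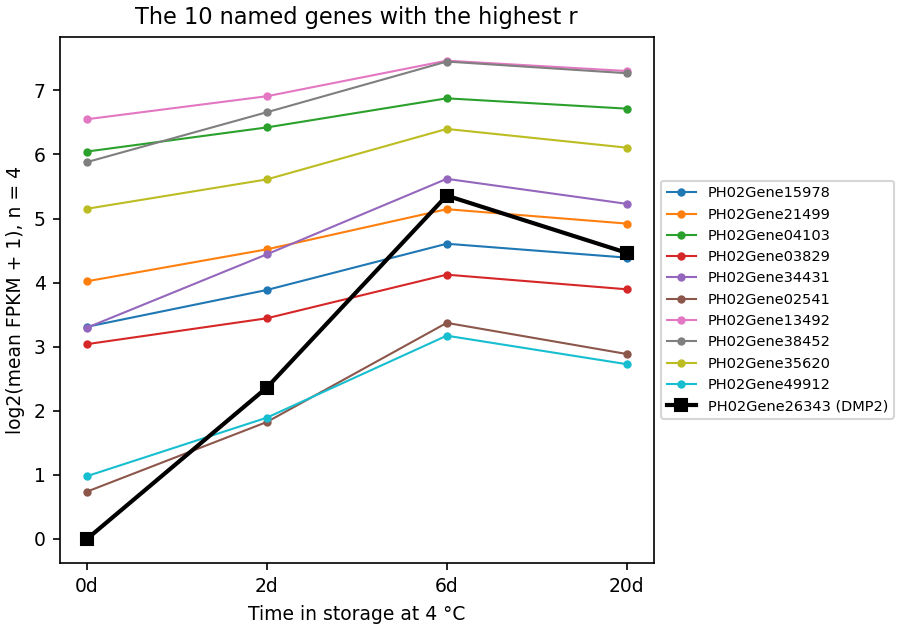
log2(mean FPKM + 1) over the 4 libraries of a time for PH02Gene26343 and the 10 named genes with the highest Pearson r with it, by time in storage. All peaked at 6d, and PH02Gene26343 alone was at 0 at 0d.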

How the data were processed

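Per the file headers, the authors deposited FPKM, in which 0 is written as 0.0001 and was read as 0, and, for the same genes and libraries, estimated counts that were not normalised. As deposited by the authors, the estimated counts are whole numbers, of which 4 is the most frequent above 0, and 35.2% of those from 1 to 19 are multiples of 4. Most low counts are thus not multiples of 4, and taking 1 fragment as 4 counts is an assumption that these counts do not establish. The floors (3 fragments over a group) and intervals rest on it and cover counting error only. The sources used here name no aligner, counting tool, strand setting or genome build. Gene names are best-hit descriptions in the deposited table.

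A mean of 1 FPKM or more over the 16 libraries was needed for testing, which 24944 genes had. Their counts were scaled by TMM and tested with the robust quasi-likelihood method of edgeR 4.0.16 under R 4.3.3, all 4 groups sharing 1 fit. Calls needed a log2 change of 1 or more in size and a p below 0.05 after Benjamini-Hochberg adjustment over all tested genes. For the F test of any change in time, the size limit was put on the largest difference between 2 times. Printed errors are SD over 4 libraries or the standard error (SE) of a log2 change. The edgeR test of 2d against 0d was tried on simulated counts, with changes put into 200 genes that were not low in counts. Recovery was scored by adjusted p alone. The F test, DESeq2, limma, the floors and the counting intervals were not checked in this way. Each library is a pool of shoots, and p-values measure the spread between these pools.

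The gene, the gene lists and the tests were chosen with earlier results of these data known. The genes named are all DMP rows, the 2 nearest rows on each side of PH02Gene26343, the 10 genes with the highest Pearson r of log2(FPKM + 1) and an informative description, and the 2 members of each list with the smallest p in the F test. PH02Gene11536 and PH02Gene01683 were named after their values were seen. Alternatives were DESeq2 1.42.0, limma 3.58.1 on log2(FPKM + 1, 0.1 or 5), other scaling and filters, a replicate block, adjusted p alone, leaving out each library in turn and, added after seeing the data, counts divided by 4. Gene and protein sequences were not used here.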

Additional observations from a re-analysis of the deposited data

Results flagged for a closer look

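PH02Gene07723 moved in opposite directions at the 2 ends of storage, with all libraries lower at 2d than at 0d and all higher at 20d. The tested difference of its log2 change, 20d minus 2d, was 7.67 (SE 0.140, edgeR adjusted p = 3.56e-19).

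Among the named genes, 110 groups of 4 libraries were looked at for a library far from its group, and 10 had one, where chance gives about 1 in 20. The rule set the gap to the nearest library against the range of the group. For the low DMP rows the flagged libraries were the only ones with counts in their group. Such a group is flagged whatever its level, so the share of 1 in 20 does not apply to it. PH02Gene01370 was at 0.114 FPKM in 2d replicate 4 and PH02Gene18816 at 0.0722 FPKM in 2d replicate 2, with the other 3 libraries at 0. PH02Gene22339 was at 0.255 FPKM in 0d replicate 1 and at 0.220 FPKM in 2d replicate 1, again with the others at 0.

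The rest lay close to their groups in absolute terms. PH02Gene02541 was at 8.46 FPKM in 6d replicate 3 (others 9.56 to 9.74), and PH02Gene49912 was at 7.79 FPKM in 6d replicate 2 (others 8.06 to 8.10). PH02Gene19014 was at 17.1 FPKM in 0d replicate 4 (others 19.3 to 19.7), at 43.3 FPKM in 6d replicate 4 (others 39.9 to 40.3) and at 81.5 FPKM in 20d replicate 3 (others 77.4 to 77.9). PH02Gene22160 was at 135 FPKM in 20d replicate 1, with the others at 130 FPKM. None of these 10 groups belonged to PH02Gene26343.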

How the results depend on the processing

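No called result changed direction under the alternatives run; where a value moved, the cause was not tested unless the setting itself gives it. Among the 4 other tested DMP rows, the number called from 0d to 6d went from 2 to 1 in DESeq2, with a minimum of 5 FPKM and in limma with 1 or 5 added, and was 1 to 3 on leaving out single libraries. PH02Gene22339 and PH02Gene01370, which their level at 20d admitted to the test, are in these counts. With the minimum of 5 FPKM, which leaves fewer DMP rows, 2 were called from 0d to 20d, 1 from 2d to 6d, 1 from 6d to 20d and 2 in the F test. From 2d to 6d, 1 was called in limma with 1 added and 0 with 5 added, the latter shrinking low genes by construction. In the F test the senescence list gave 13 calls with no filter. The chlorophyll list gave 6 with the minimum of 5 FPKM and 4 in limma with 5 added, the cell death list 12 and 13, and the ER list 16 with that minimum. The gamete fusion list gave 2 with no filter and 1 by adjusted p alone. The bound on PH02Gene26343 over 0d, on TMM-scaled counts, ranged from 49.4 to 73.8 at 2d, 460 to 659 at 6d and 266 to 374 at 20d on leaving out single libraries, and was 292 at 20d with total counts. Of the 10 most like genes, 2 were shared with Spearman, 0 with 0.1 added, 4 with 5 added, 3 with group means and 0 with log CPM.

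Replicate numbers did not pair the libraries. To see this, each gene's mean over the libraries of a time was subtracted from its log CPM. Libraries of different times were then correlated on what remained, not on their whole profiles. On these remainders same-numbered libraries correlated at -0.046 to 0.052 over 24 pairs, and 5 of 16 libraries correlated best with their own number. With the replicate block, 7758, 9572 and 10971 genes were called at 2d, 6d and 20d, against 7762, 9579 and 10969 without it, and no call of a DMP row changed. The calls were 11961, 14330 and 16428 with no filter, 3922, 5132 and 6237 with the minimum of 5 FPKM, 2807, 3808 and 5221 in limma with 5 added, and 20005, 21107 and 21421 by adjusted p alone. In limma on log2(FPKM + 1), 26.7%, 32.8% and 31.2% of the changes called were higher. Depth limits the DMP rows below 1 FPKM, where a few fragments set the level.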

Other observations

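With 0.1 in place of 1 added to FPKM, the gene closest in course to PH02Gene26343 was PH02Gene32562, described as a phosphoenolpyruvate carboxykinase, with r = 0.9976 over the 16 libraries. This gene was picked after its value was seen, and r is a description here.

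The surroundings of a DMP gene were taken here as the 15 rows on each side of it, a wider span than that of the neighbours above. Of the 15 rows with an informative description around PH02Gene26343, 0 shared their description with a row around any other DMP gene. How often the surroundings of unrelated genes share a description is not given here. Around PH02Gene01676, which had 0 counts, 3 descriptions were shared with the surroundings of PH02Gene18816 and 2 with those of PH02Gene48139.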
